A study of Mus musculus with 12 samples.

Results

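Inmt and 3 flavin-containing monooxygenase genes, Fmo1, Fmo2 and Fmo5, are described here in mouse heart RNA, as 4 genes of the 18604 measured. They were taken by gene name. Inmt and Fmo2 had been picked on measured values, for their large difference between diets in hearts under pressure overload. For this pair that difference, and every contrast that uses the same libraries, is therefore given as a description without a test. Fmo1 and Fmo5 were not picked on values and were tested in every contrast.

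The hearts came from 12-week-old male C57Bl/6J mice in 4 groups with 3 libraries each. BCAA-free TAC hearts came from mice on a diet from which the branched-chain amino acids (BCAA) leucine, isoleucine and valine were left out, with transverse aortic constriction (TAC), a surgical narrowing of the aorta against which the left ventricle has to pump. BCAA-free sham hearts came from mice on the same diet with a sham operation. Control diet TAC and control diet sham hearts came from mice with the same operations on the diet labelled BCAA-control, which held BCAA at the amount of standard chow. Diets were given from 4 days before surgery until the hearts were taken 1 week after it. The labels name the tissue as heart, without a chamber, and do not say whether libraries came from single or pooled animals, so a p-value here speaks to the variation among these libraries alone, which may be technical. The comparisons ask what the diet did to these genes with and without pressure overload, and what pressure overload did to them on each diet.

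INMT transfers methyl groups from S-adenosylmethionine to small amines such as tryptamine, and in the mouse also to thioethers and selenium compounds, and its RNA is known to be abundant in lung. Flavin-containing monooxygenases hold FAD and use NADPH and oxygen to oxidise nitrogen and sulfur atoms of drugs, food amines and some metabolites. FMO1 also oxidises hypotaurine to taurine, FMO2 is the form typical of lung in most mammals, and FMO5 differs from its relatives in inserting oxygen next to carbonyl groups. Flavin-containing monooxygenases are best known from liver, kidney and lung.

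In GRCm38, Inmt (ENSMUSG00000003477) lay on the minus strand of chromosome 6 at chr6:55170626-55175043. Fmo1 (ENSMUSG00000040181, chr1:162829561-162866610) and Fmo2 (ENSMUSG00000040170, chr1:162874317-162898726) were neighbours on the minus strand of chromosome 1, 7707 bases apart. Fmo5 (ENSMUSG00000028088) was on the plus strand of chromosome 3 at chr3:97628804-97655282. All 4 were protein-coding and overlapped no other gene of the annotation. Reads of related Fmo genes can be mixed up where sequences are the same. None of the 4 genes shared a stretch of 50 bases with another Fmo gene, and 443 of the 6314 distinct stretches of Fmo1 and 25 of the 5764 of Fmo5 also occurred in other genes.

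Promoter windows of Inmt, Fmo2 and Fmo5 were used, from RefSeq, and the set at hand held no window for Fmo1. The BCAA-free libraries of these 3 genes lay above the control diet libraries with either surgery, a difference that passed the test in sham hearts for Fmo5 alone. The window before the second Fmo2 start site was searched but is not shown. The windows of 250 bases before the Inmt, Fmo5 and first Fmo2 start sites are shown. Each is read 5′ to 3′ on the gene's own strand in GRCm38.p6, with matches to the motifs searched in capitals. RefSeq and GENCODE starts differ: the Fmo5 window and that of the second Fmo2 start site lie mostly inside the gene as GENCODE places it, and the Inmt window lies partly inside it.
Inmt, minus strand, chr6:55174991-55175240: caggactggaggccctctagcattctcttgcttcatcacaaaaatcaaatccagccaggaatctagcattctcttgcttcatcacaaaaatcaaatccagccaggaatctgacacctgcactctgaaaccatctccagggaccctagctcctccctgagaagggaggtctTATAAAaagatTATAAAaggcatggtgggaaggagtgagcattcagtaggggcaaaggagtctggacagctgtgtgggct
Fmo2, the first start site, minus strand, chr1:162898759-162899008: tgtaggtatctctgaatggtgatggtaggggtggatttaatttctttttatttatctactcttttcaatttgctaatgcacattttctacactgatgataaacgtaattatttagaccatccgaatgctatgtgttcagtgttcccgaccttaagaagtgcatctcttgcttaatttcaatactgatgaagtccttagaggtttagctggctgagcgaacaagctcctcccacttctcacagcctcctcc
Fmo5, plus strand, chr3:97628769-97629018: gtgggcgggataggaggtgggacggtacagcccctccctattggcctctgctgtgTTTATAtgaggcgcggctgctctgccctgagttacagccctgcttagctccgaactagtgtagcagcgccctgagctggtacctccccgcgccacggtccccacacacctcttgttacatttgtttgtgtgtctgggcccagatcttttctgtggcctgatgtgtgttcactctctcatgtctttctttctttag

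Both strands were searched for TATAAA, bound by the general transcription machinery, AGAACA, the core of the glucocorticoid receptor site, GTAAACA, bound by forkhead factors, GCGTG, the core of the aryl hydrocarbon receptor site, and CACGTG, the E-box. The matches did not overlap. The Inmt window held TATAAA 2 times, beginning at -80 and -69 from the RefSeq start site, which is -27 and -16 from the start of the gene in the GENCODE annotation. TATAAA was found in 12.4% of the 32851 windows of the same length in the table. The Inmt window also held a direct repeat of 46 bases in 2 adjoining copies, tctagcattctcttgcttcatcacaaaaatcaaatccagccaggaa, and 2.5% of the windows held a direct repeat of at least 20 bases. The longest direct repeat in the Fmo2 and Fmo5 windows had 9 bases. The Fmo5 window held TATAAA on the other strand, at -195 from the RefSeq start site and 21 bases past the GENCODE start. The window before the first Fmo2 start site held no match, and that before the second held AGAACA at -125 and GTAAACA at -28, motifs present in 16.1% and 3.17% of windows. From the GENCODE start these lie 109 and 206 bases inside the gene. GCGTG, found in 28.2% of windows, and CACGTG, found in 6.02%, had no match in these 4 windows.

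Libraries held 74206246 to 110452636 reads. Levels are given as normalized reads, scaled by size factors that were set jointly over the 12 libraries. Cardiomyocyte markers summed to 4851672 or more normalized reads in every library, as the heart label implies. Along the first principal component, which held 44.1% of the variance, control diet TAC libraries lay at 48.4 to 61.5 and the others at -4.27 or lower. Within that group, control diet TAC 3 stood apart on the second component, at -35.5. Mitochondrially coded genes took 17.9% to 19.9% of reads in control diet TAC libraries and 21.8% to 27.1% in the other groups. In bulk RNA, fewer cells of a type and less RNA per cell cannot be told apart.

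Inmt had the widest relative range of the 4 genes. Its normalized reads were 1179, 1561 and 1126 in BCAA-free TAC hearts, 1702, 1193 and 1589 in BCAA-free sham hearts, 192, 165 and 196 in control diet TAC hearts, and 772, 994 and 419 in control diet sham hearts. Each library on the BCAA-free diet lay above each library on the control diet, whatever the surgery, and the control diet TAC libraries lay lowest and close together. The share of all genes with such a separation of the diets was not counted, and Inmt was picked on the TAC libraries among them. Group means were 1289 ± 238 in BCAA-free TAC, 1495 ± 268 in BCAA-free sham, 185 ± 17 in control diet TAC and 728 ± 290 in control diet sham hearts (SD, n = 3 each).

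**Figure D1:**
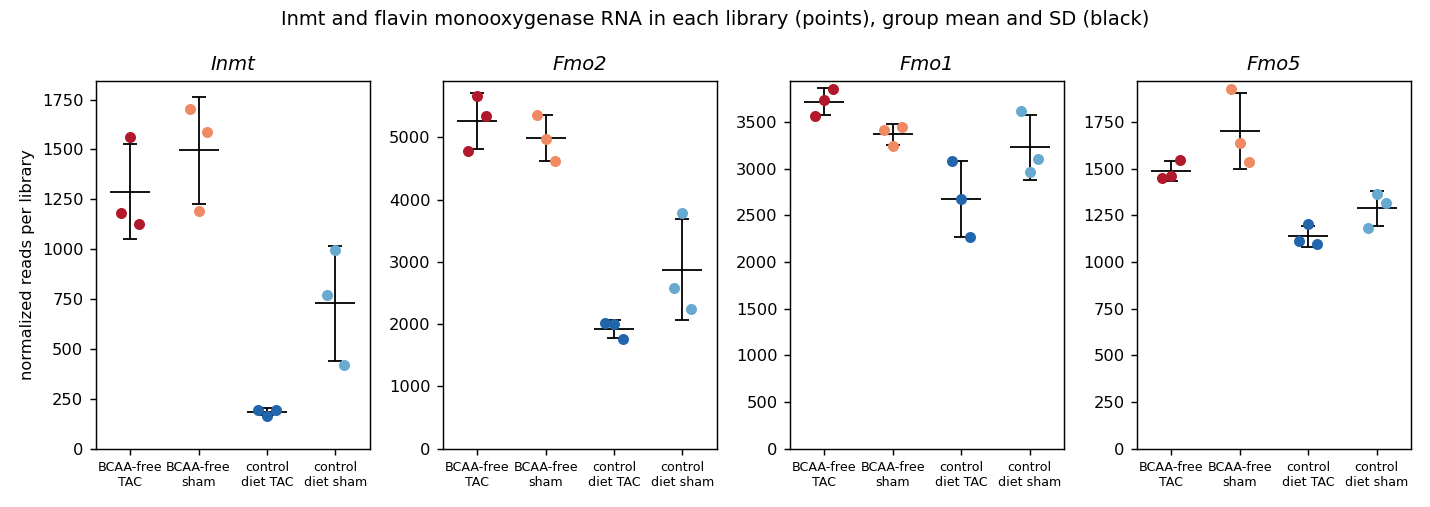
Normalized reads of Inmt, Fmo2, Fmo1 and Fmo5 (vertical axes from 0) in the 4 groups. Coloured points are the 3 libraries of a group, and the black line and bar are the group mean and SD. Inmt sits at 165 to 196 in control diet TAC hearts, against 419 or more in every other group, and Fmo2 sits at 4615 or more on the BCAA-free diet and at 3790 or less on the control diet.

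In TAC hearts Inmt was higher on the BCAA-free diet by 2.79 ± 0.158 (log2 ± SE), or 6.93-fold, the rank 5 rise among 18039 genes. In the authors' deposited table for this comparison its log2 change was 2.81, and it had the smallest p of 18098 genes, rank 1. These values chose the gene and are no test of it. Sham libraries were not part of that choice. In sham hearts Inmt was 1.11 ± 0.359 higher on the BCAA-free diet (95% interval 0.19 to 2.03), without overlap between the groups and with rank 39 from the top among 17862 genes, and did not pass the test (limma adjusted p = 0.184, edgeR 0.2, DESeq2 0.0636). Its adjusted p stayed between 0.0866 and 0.392 when each library was left out in turn.

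Between surgeries, Inmt differed by -1.90 ± 0.278 in TAC over sham hearts on the control diet, a fold of 3.73 lower, and the libraries did not overlap. On the BCAA-free diet the difference was -0.22 ± 0.169, and the libraries overlapped. The TAC response on the BCAA-free diet minus that on the control diet came to 1.68 ± 0.359. These values use the TAC libraries on which Inmt was picked, and no p is given.

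Fmo2 was also higher on the BCAA-free diet with either surgery, over a smaller relative range. It had 4784, 5658 and 5349 normalized reads in BCAA-free TAC hearts, 5352, 4979 and 4615 in BCAA-free sham hearts, 2015, 2006 and 1758 in control diet TAC hearts, and 2576, 3790 and 2251 in control diet sham hearts. The 6 libraries on the BCAA-free diet all lay above the 6 on the control diet. How many of all genes do so was not counted, and Fmo2 was picked on the TAC libraries among them. Control diet sham 2 was the highest of the control diet libraries for both Fmo2 and Inmt.

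In TAC hearts Fmo2 was 1.46 ± 0.102 higher on the BCAA-free diet, or 2.74-fold, again the contrast on which it was picked. In sham hearts it was 0.83 ± 0.198 higher (95% interval 0.34 to 1.32), without overlap and at rank 139 from the top. This missed the threshold (limma adjusted p = 0.0891, edgeR 0.109) but passed in DESeq2 (adjusted p = 0.0172). Control diet sham 2 decided the call: without it the difference was 1.05 with a limma adjusted p of 0.000358, and without any other library the adjusted p was 0.153 to 0.23. TAC hearts differed from sham hearts by 0.07 ± 0.074 on the BCAA-free diet and by -0.55 ± 0.173 on the control diet, the value being -0.34 without control diet sham 2. The difference between these responses was 0.62 ± 0.209, and 0.40 without control diet sham 2.

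Fmo1 was higher on the BCAA-free diet in TAC hearts. Its normalized reads were 3568, 3732 and 3849 in BCAA-free TAC hearts, 3409, 3240 and 3449 in BCAA-free sham hearts, 3084, 2671 and 2265 in control diet TAC hearts, and 3617, 2963 and 3102 in control diet sham hearts. BCAA-free TAC libraries lay above those of control diet TAC, while the sham groups overlapped. In TAC hearts Fmo1 rose with the BCAA-free diet by 0.49 ± 0.117, or 1.41-fold (limma adjusted p = 0.0199). The call was lost without BCAA-free TAC 1, 2 or 3 (adjusted p = 0.0556, 0.0886 and 0.0892). In sham hearts the diet difference was 0.06 ± 0.0761 (95% interval -0.10 to 0.23, adjusted p = 0.692). TAC over sham gave 0.14 ± 0.0577 on the BCAA-free diet (adjusted p = 0.174) and -0.29 ± 0.131 on the control diet (adjusted p = 0.18), neither past the threshold. The difference of the TAC responses between diets was 0.42 ± 0.148 and did not pass (adjusted p = 0.194), so a diet effect particular to TAC hearts was not shown for Fmo1.

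Fmo5 was higher on the BCAA-free diet with either surgery, by nearly the same amount. It had 1452, 1463 and 1546 normalized reads in BCAA-free TAC hearts, 1927, 1640 and 1537 in BCAA-free sham hearts, 1115, 1202 and 1097 in control diet TAC hearts, and 1181, 1366 and 1314 in control diet sham hearts. Again each library on the BCAA-free diet lay above each on the control diet, a pattern whose share over all genes was not counted. Fmo5 rose with the diet by 0.39 ± 0.0952 in TAC hearts (limma adjusted p = 0.0215) and by 0.40 ± 0.0948 in sham hearts (adjusted p = 0.0494), or 1.31-fold and 1.32-fold. In TAC hearts the call was lost without control diet TAC 1 (adjusted p = 0.077) and without BCAA-free TAC 1, 2 or 3 (0.057, 0.0924 and 0.104). In sham hearts it was lost without any library other than control diet sham 2 (adjusted p = 0.0781 to 0.184). TAC over sham was -0.19 ± 0.0847 on the BCAA-free diet (adjusted p = 0.19) and -0.19 ± 0.103 on the control diet (adjusted p = 0.267). The TAC responses differed between diets by -0.01 ± 0.133 (95% interval -0.30 to 0.27, adjusted p = 0.983).

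**Figure D2:**
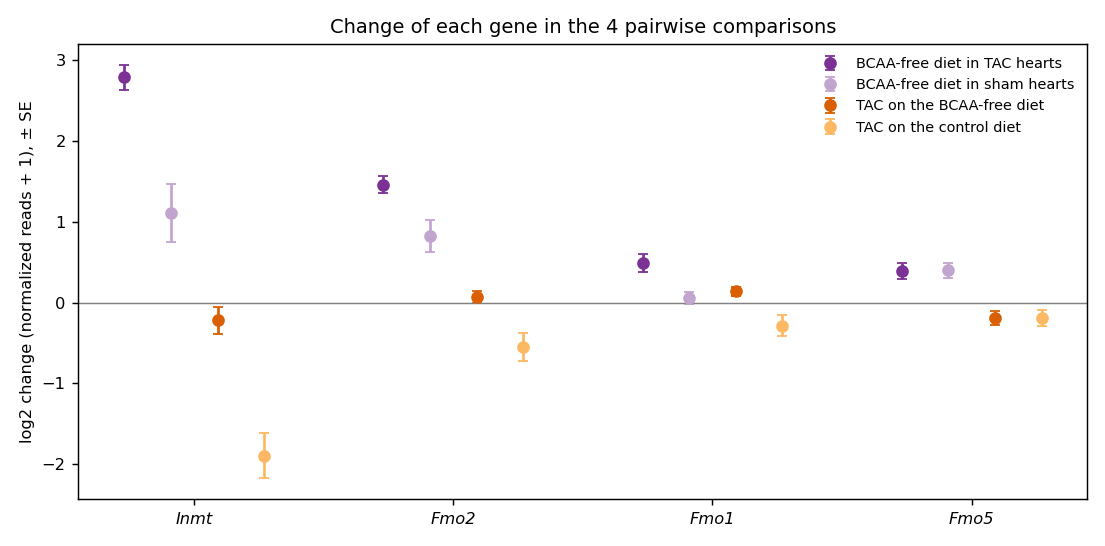
Log2 change (vertical axis, on normalized reads + 1) of each gene in the 4 pairwise comparisons, with bars for the SE. The diet effect in TAC hearts runs from 2.79 for Inmt to 0.39 for Fmo5, and the effect of TAC on the BCAA-free diet stays between -0.22 and 0.14 for all 4 genes.

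Against the whole table, 6.23% of the 18039 genes tested rose and 10.5% fell with the BCAA-free diet in TAC hearts, and both genes tested there, Fmo1 and Fmo5, rose. All 4 genes had BCAA-free TAC libraries entirely above control diet TAC libraries, a pattern seen in 17% of genes, but Inmt and Fmo2 were picked on this contrast. In sham hearts 1.27% of 17862 genes rose and 2.27% fell, and 1 of the 4 genes, Fmo5, was called, against 1 by edgeR, 2 by DESeq2 and 3 with an unadjusted p below 0.05. Inmt, Fmo2 and Fmo5 had BCAA-free sham libraries entirely above those of control diet sham, against 13.2% of genes. With TAC, 9.17% of genes rose and 5.64% fell on the control diet, and 3.31% rose and 4.41% fell on the BCAA-free diet. Neither Fmo1 nor Fmo5 was called on either diet by limma, edgeR or DESeq2, and both had an unadjusted limma p below 0.05 on the BCAA-free diet. The difference of TAC responses was called higher in 0.158% and lower in 0.474% of genes, with neither Fmo1 nor Fmo5 among them in any tool and 1 of them, Fmo1, at an unadjusted p below 0.05.

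Ordered by mean, Inmt ran BCAA-free sham, BCAA-free TAC, control diet sham, control diet TAC. The first 2 of these overlapped and each later step did not. Fmo5 had the same order, with overlap between the BCAA-free groups and between the control diet groups and none between the diets. Fmo2 ran BCAA-free TAC, BCAA-free sham, control diet sham, control diet TAC, with overlap in the first step alone. Fmo1 had the order of Fmo2, but there only the step between BCAA-free TAC and BCAA-free sham was free of overlap. Of these steps, only that between the sham groups has its share over all genes given above. For the other steps it was not counted, and Inmt and Fmo2 were picked on the TAC libraries.

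Per length of exon sequence, the order of the genes differed between groups. In BCAA-free TAC hearts Fmo2 had 938 ± 79 normalized reads per kb of exon, Inmt 805 ± 149, Fmo1 590 ± 22.4 and Fmo5 262 ± 9.09 (SD, n = 3). In control diet TAC hearts Fmo1 came first with 424 ± 64.9 reads per kb, followed by Fmo2 with 343 ± 26, Fmo5 with 201 ± 9.92 and Inmt with 115 ± 10.6. Inmt and Fmo2 overlapped in BCAA-free TAC hearts, and Inmt was below the other 3 genes in each control diet TAC library. These levels use the union of exons. With the longest annotated transcript in its place Fmo1 came to 1197 reads per kb in BCAA-free TAC hearts, close to Inmt at 1196 and Fmo2 at 1294, because that transcript of Fmo1 is a single exon of 3106 bases. The rank of Fmo1 among the 4 genes in BCAA-free TAC hearts is therefore not settled. In control diet TAC hearts Fmo1 had the highest mean by either length, with 861 reads per kb of the longest transcript against 474 for Fmo2.

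Fmo4, another flavin-containing monooxygenase gene of the chromosome 1 cluster, was near the lower limit of the tables. It averaged 33.4 ± 7.06 normalized reads in BCAA-free TAC, 34.6 ± 5.2 in BCAA-free sham, 32.8 ± 7.23 in control diet TAC and 39.2 ± 16.4 in control diet sham hearts (SD, n = 3), with overlap in all 4 pairwise comparisons. Fmo6 and Fmo9 were not listed in the tables, so they have no values here.

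**Figure D3:**
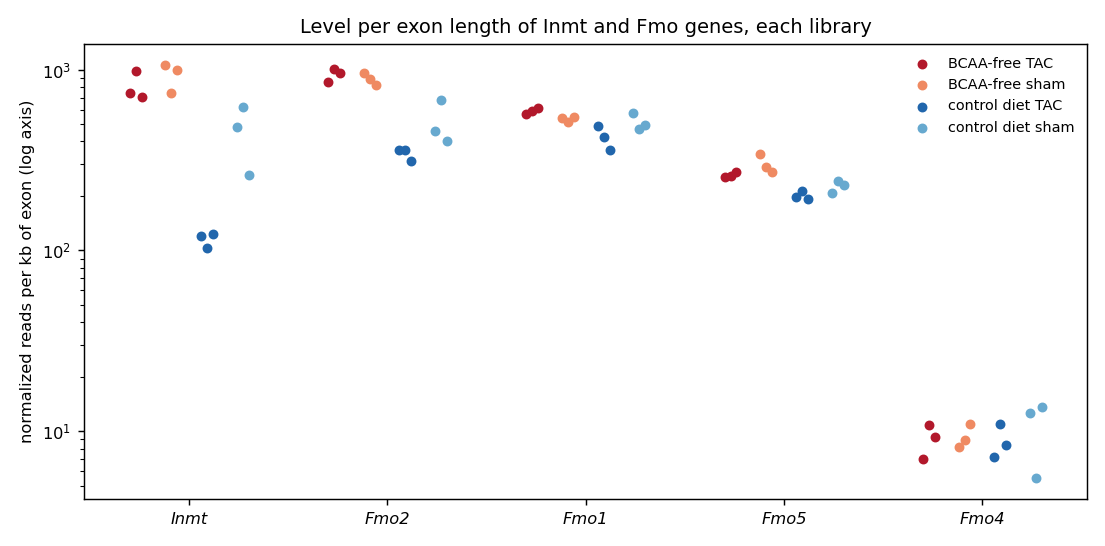
Normalized reads per kb of exon (vertical log axis) of Inmt, Fmo2, Fmo1, Fmo5 and Fmo4, 1 point per library, coloured by group. Inmt runs from 103 in control diet TAC to 1064 in BCAA-free sham hearts, while Fmo4 stays at or below 13.6 in every library.

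Across the 12 libraries, which fall into the 4 groups and share their size factors, Inmt and Fmo2 had a Pearson correlation of 0.94 on the log2 scale. Both had been picked for a diet difference in TAC hearts, which are part of these libraries, so likeness over the groups follows in part from that choice. After the group means were taken out the correlation was 0.72, the highest of the 6 pairs of the 4 genes. Both genes spread most in control diet sham hearts (SD 39.9% of the mean for Inmt, 28.2% for Fmo2), where the libraries had the same order for both. In control diet TAC hearts the library highest for Inmt, at 196, was lowest for Fmo2, at 1758. The part of each group in this correlation was not tested. Fmo2 and Fmo5 gave 0.88 and 0.48 after removal of group means, and Inmt and Fmo5 0.83 and 0.03. Inmt and Fmo1 gave 0.77 and 0.04, Fmo1 and Fmo2 0.75 and -0.01, and Fmo1 and Fmo5 0.57 and -0.17. The neighbours Fmo1 and Fmo2 were thus alike over the groups but not among libraries of the same group.

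Among 12823 genes with a mean of at least 50 normalized reads, the 5 most like Inmt were Art3 and Idh2 (0.98 each) and Selenoo, Ccbe1 and Nipsnap2 (0.97 each), with 0.53 to 0.81 within groups. Idh2, the mitochondrial NADP-dependent isocitrate dehydrogenase, averaged 167075 ± 10262 normalized reads in BCAA-free TAC, 175283 ± 8295 in BCAA-free sham, 96273 ± 9349 in control diet TAC and 134611 ± 5856 in control diet sham hearts. Its groups have the order of Inmt over a smaller relative range. The genes of this paragraph were chosen for likeness over these same libraries. Alike group values, and correlations within groups, follow in part from that choice. The 5 most like Fmo2 were Spock2, Ppl and Etfbkmt (0.96 each) and Olfr1372-ps1 and Gpcpd1 (0.94 each). Ppl, which codes for the cell junction protein periplakin, had 985 to 1367 normalized reads in BCAA-free TAC, 1118 to 1268 in BCAA-free sham, 299 to 401 in control diet TAC and 561 to 1158 in control diet sham hearts. For Fmo1 they were Kank3 (0.93), Zfp14 (0.92), Vwa3a and Slc26a10 (0.91 each) and Pnisr (0.89). For Fmo5 they were Pkp4, Serinc3 and Srp68 (0.96 each) and Marf1 and Rnf141 (0.95 each). Inmt ranked Fmo2 at 75.

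The nearest measured genes were examined for changes along the chromosome. Around Inmt, Aqp1, the water channel aquaporin-1, rose with the BCAA-free diet in TAC hearts by 0.77 (adjusted p = 0.00242) and fell with TAC on the control diet, by -0.79 (adjusted p = 0.00844). Both calls of Aqp1 held without each library in turn. Ggct, gamma-glutamylcyclotransferase, rose by 0.51 (adjusted p = 0.0134) and Adcyap1r1, a receptor for the peptide PACAP, changed by -0.70 (adjusted p = 0.0151) with the diet in TAC hearts. Without control diet TAC 1 or BCAA-free TAC 2 both calls were lost (adjusted p up to 0.0785 and 0.0812), and that of Ggct also without BCAA-free TAC 1. Crhr2, Gars and Mindy4, of which Mindy4 and Crhr2 flank Inmt, were not called for the diet in TAC hearts. Next to the Fmo genes of chromosome 1, Myoc, which codes for the secreted protein myocilin, rose with the diet in TAC hearts by 1.03 (adjusted p = 0.0115), with 459 to 566 normalized reads in BCAA-free TAC against 177 to 323 in control diet TAC hearts, and was lost without BCAA-free TAC 2 (adjusted p = 0.065). Fmo4, 15589 bases from Fmo1, differed by 0.03 in that contrast (adjusted p = 0.952), and Prrc2c, Prrx1 and Gorab were not called in it. Of the 6 neighbours of Fmo5, Chd1l, a chromatin remodeller, rose in the same contrast by 0.33 (adjusted p = 0.0378), a call that held without control diet TAC 3 and was lost without any other library (adjusted p up to 0.155). None of these neighbours was called for the diet in sham hearts by limma. With TAC on the control diet, Crhr2 (-0.57, adjusted p = 0.0135), Ggct (-0.41, adjusted p = 0.0417), Myoc (-1.07, adjusted p = 0.0202) and Acp6 (-0.41, adjusted p = 0.0375) also fell and Adcyap1r1 (0.61, adjusted p = 0.0339) rose. Crhr2 was called in 4 of 6 fits without 1 library, Myoc in 3 and the other 3 genes in 1 each. With TAC on the BCAA-free diet Prrc2c fell, by -0.20 (limma adjusted p = 0.0422), and none of the other neighbours named here was called.

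**Figure D4:**
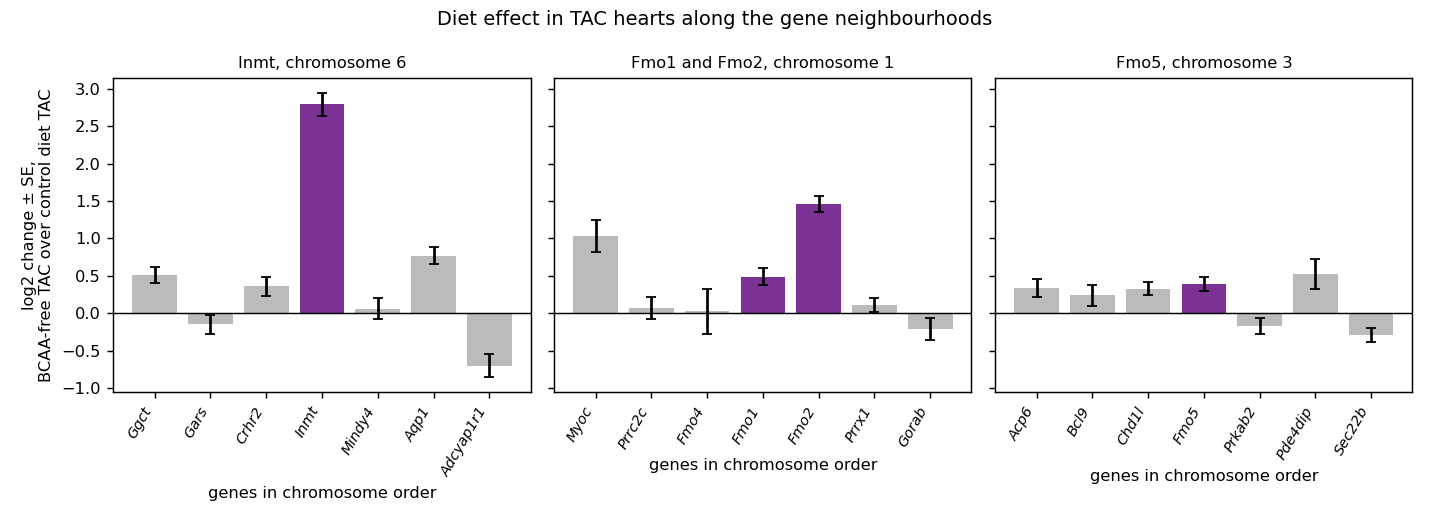
Log2 change ± SE of BCAA-free TAC over control diet TAC (vertical axis) for Inmt, Fmo1, Fmo2 and Fmo5 (purple) and measured protein-coding genes beside them, up to 3 on each side (grey), in chromosome order and not to scale. Inmt (2.79) and Fmo2 (1.46) were picked for their size in this contrast, and among the grey genes Myoc at 1.03 and Aqp1 at 0.77 are the highest.

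Lists of genes around these enzymes were described by their counts, which are read against the percentages of all genes given above. In TAC hearts the median change of all genes with the diet was 0.02. Of 14 small-molecule methyltransferases tested, 3 rose and 1 fell with the BCAA-free diet in TAC hearts, with a median of 0.37. Gnmt, which spends S-adenosylmethionine on glycine, had 246 to 336 normalized reads in BCAA-free TAC against 66.2 to 125 in control diet TAC hearts and rose by 1.68 ± 0.262 (adjusted p = 0.00294). Mettl7a1, a thiol methyltransferase, rose by 0.59 ± 0.105 (adjusted p = 0.00577), and Hnmt, which inactivates histamine, by 0.83 (adjusted p = 0.027). Nnmt, which methylates nicotinamide, had 225 to 269 normalized reads in BCAA-free TAC against 496 to 549 in control diet TAC hearts and fell, by -1.11 ± 0.141 (adjusted p = 0.00116). The calls of Gnmt, Mettl7a1 and Nnmt held without each library in turn, and that of Hnmt held without control diet TAC 2 or 3 only (adjusted p up to 0.124 otherwise). The count of 4 called became 9 without control diet TAC 3. In sham hearts Gnmt was the 1 gene called, with a rise of 1.06 ± 0.175 (adjusted p = 0.0136). That count was 3 without control diet sham 2 and 0 without control diet sham 3, BCAA-free sham 1 or BCAA-free sham 3.

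The supply of methyl groups was followed through 11 genes of the methionine and S-adenosylmethionine cycle. In TAC hearts 2 rose with the diet and none fell, with a median of 0.26. They were Cth, cystathionine gamma-lyase, at 1.65 ± 0.296 (adjusted p = 0.0057) and Mtr, methionine synthase, at 0.75 ± 0.138 (adjusted p = 0.00638), and both held without each library in turn. The count was 5 without control diet TAC 3. Cth also rose in sham hearts, by 1.00 ± 0.199 (adjusted p = 0.0263), a call that held without control diet sham 2 and was lost without any other library. Of 8 genes of tryptophan and tryptamine metabolism, Maob, the monoamine oxidase B, was the 1 called in TAC hearts, with a rise of 0.62 ± 0.126 (adjusted p = 0.01), and was lost without BCAA-free TAC 2 or BCAA-free TAC 3.

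Of 14 glutathione and sulfo transferases, 6 rose with the diet in TAC hearts and none fell, with a median of 0.30. Sult1a1, a phenol sulfotransferase, rose by 0.86 ± 0.101 (adjusted p = 0.000861), Gstm7 by 0.85 ± 0.159 (adjusted p = 0.00697) and Gstk1 by 0.84 ± 0.182 (adjusted p = 0.0132), both glutathione transferases. Gstk1 was lost without BCAA-free TAC 2 (adjusted p = 0.0712). The count was 2 without BCAA-free TAC 2 and 3 without BCAA-free TAC 3. Of 20 other genes of oxidative drug metabolism, 3 rose and 2 fell, with a median of 0.15. Ces1d, a carboxylesterase, rose by 1.24 ± 0.21 (adjusted p = 0.00442) and Adh1, an alcohol dehydrogenase, by 1.05 ± 0.208 (adjusted p = 0.00887), while Cyb5r3, the NADH-cytochrome b5 reductase, fell, by -0.82 ± 0.111 (adjusted p = 0.00161). Ces1d was lost without control diet TAC 3 (adjusted p = 0.084), while Adh1 and Cyb5r3 held without each library. The count of 5 was 9 without control diet TAC 3 and 3 without control diet TAC 2, BCAA-free TAC 2 or BCAA-free TAC 3. In sham hearts 2 genes of each of these lists rose and none fell. They were Gstm2 at 0.45 ± 0.0742 and Gstm7 at 0.40 ± 0.0656 (adjusted p = 0.0136 for both), the P450 enzyme gene Cyp1b1 at 0.56 ± 0.104 (adjusted p = 0.0202), and Aldh2, the mitochondrial aldehyde dehydrogenase, at 0.24 ± 0.0553 (adjusted p = 0.0437). No call remained for either list without BCAA-free sham 1, 2 or 3.

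Flavin-containing monooxygenases draw on FAD and NADPH. Of 10 genes for their supply, 2 rose and 1 fell with the diet in TAC hearts, with a median of -0.17. Idh2 rose by 0.80 ± 0.124 (adjusted p = 0.00276) and Flad1, the FAD synthase, by 0.30 ± 0.0911 (adjusted p = 0.049), and Pgd, an enzyme of the pentose phosphate pathway, fell, by -0.46 ± 0.106 (adjusted p = 0.0166). Idh2 held without each library in turn, Flad1 held without control diet TAC 3 alone (adjusted p up to 0.208), and Pgd was lost without control diet TAC 1, BCAA-free TAC 1 or BCAA-free TAC 2. In sham hearts Idh2 was the 1 gene called, with a rise of 0.38 ± 0.0609 (adjusted p = 0.0124), lost without BCAA-free sham 1 or 3. The count in TAC hearts was 6 without control diet TAC 3 and 1 without control diet TAC 1, BCAA-free TAC 1 or BCAA-free TAC 2. Of 6 genes of taurine synthesis and uptake, named for the role of FMO1, limma and edgeR called 0 with the diet in TAC hearts, DESeq2 called 1, and 2 had an unadjusted limma p below 0.05. Without control diet TAC 3 limma called 2. In sham hearts Got1, an aspartate aminotransferase, rose by 0.23 ± 0.0529 (adjusted p = 0.0439) and was lost without any of the 6 libraries (adjusted p = 0.0553 to 0.177).

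**Figure D5:**
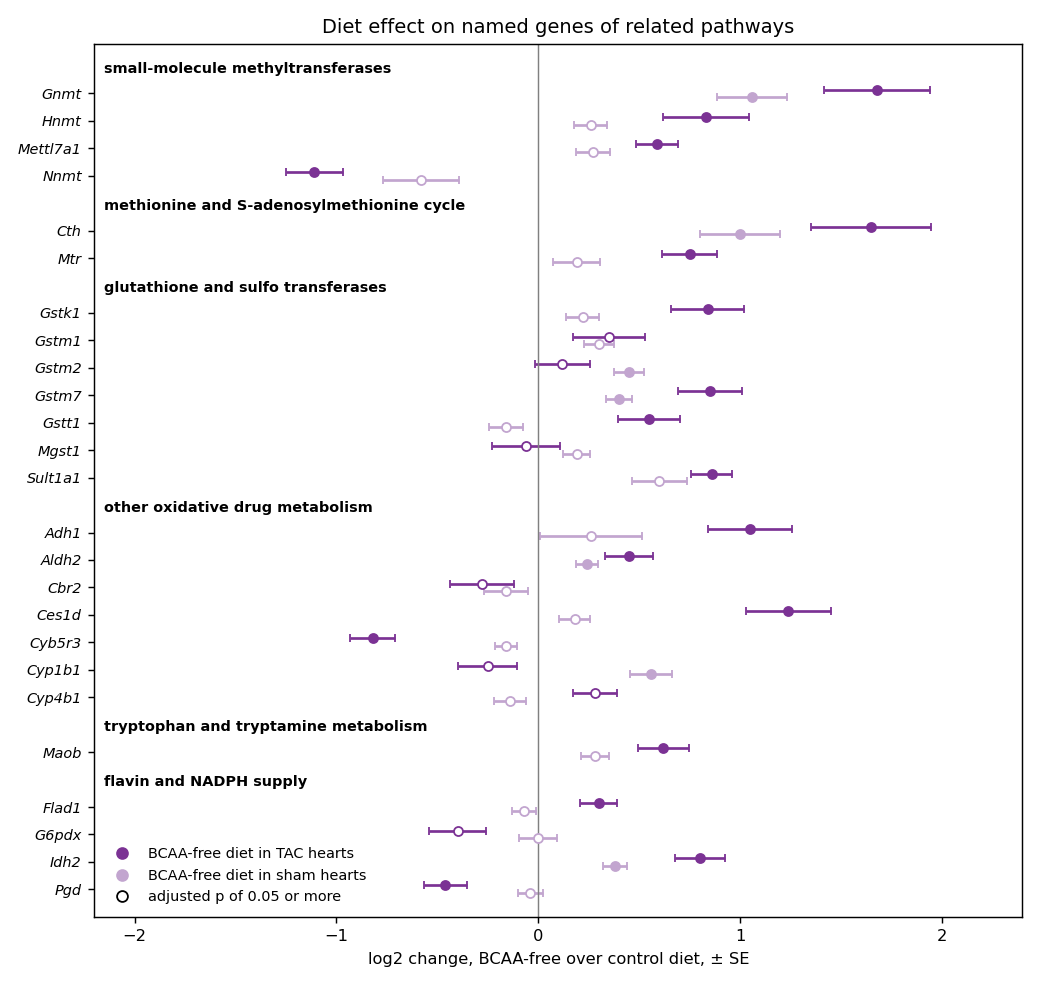
Log2 change ± SE of the BCAA-free over the control diet (horizontal axis) in TAC hearts (dark) and sham hearts (light) for named genes of 6 lists. Filled points have an adjusted p below 0.05. Gnmt (1.68 and 1.06) and Cth (1.65 and 1.00) are filled in both, while Nnmt and Cyb5r3 lie to the left in TAC hearts at -1.11 and -0.82.

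Genes of the same lists were also called with TAC. On the control diet limma called 3 of 20 oxidative drug metabolism genes higher and 3 lower. The counts were 2 and 1 of 10 FAD and NADPH supply genes and 0 and 3 of 14 glutathione and sulfo transferases. Of the 14 genes known to respond to glucocorticoids, described below, 4 rose and 1 fell. With 1 library left out the genes called numbered 3 to 7, 0 to 5, 1 to 4 and 3 to 5 in these lists. On the BCAA-free diet the counts were 1 and 1, 0 and 0, 0 and 3, and 1 and 2. On the control diet, among the methyltransferases, Nnmt rose by 1.11 ± 0.2 (adjusted p = 0.0077), and Hnmt and Mettl7a1 fell, by -0.83 ± 0.211 and -0.40 ± 0.111 (adjusted p = 0.0306 and 0.0426). Mtr fell, by -0.86 ± 0.122 (adjusted p = 0.00305), Ces1d by -1.41 ± 0.164 (adjusted p = 0.0012), Maob by -0.63 ± 0.118 (adjusted p = 0.00881) and Gstt1 by -0.73 ± 0.135 (adjusted p = 0.00821). Csad, which makes hypotaurine, rose by 0.48 ± 0.0986 (adjusted p = 0.013). Hnmt and Mettl7a1 were each lost in 4 of the 6 fits without 1 library and Csad in 3. Nnmt, Mtr, Ces1d, Maob and Gstt1 held in all 6. Of further genes called on the control diet under the naming rule below, Cyb5r3, Mt2 and Fkbp5 held in all 6 and Cebpd in 5. Cyp4b1, Gstm7 and Pgd held in 2 of these fits, and Gstk1, Idh2 and G6pdx in 1. With TAC on the BCAA-free diet Nnmt rose by 0.57 ± 0.14 (adjusted p = 0.0306), and Aldh2, Gstm1 and Gstm2 fell, by -0.30 ± 0.0537, -0.37 ± 0.064 and -0.35 ± 0.0675 (adjusted p = 0.00642, 0.00544 and 0.00997). These 3 held without each library in turn, and Nnmt held in 1 of 6 such fits. Of further genes called there under the same rule, Klf9 held in all 6, Errfi1 in 4, Lcn2 in 3, Mgst1 in 2 and Cbr2 in 1. The diet and TAC comparisons share the control diet TAC libraries, so these values stand side by side and are not independent.

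Of 14 genes known to respond to glucocorticoids, Klf9 rose and Mt2 and Fkbp5 fell with the diet in TAC hearts, with a median of -0.23. Klf9, a transcription factor gene, rose by 0.44 ± 0.0917 (adjusted p = 0.0115), Mt2, a metallothionein, fell, by -0.88 ± 0.185 (adjusted p = 0.0113), and Fkbp5, a chaperone partner of the receptor, fell, by -0.48 ± 0.121 (adjusted p = 0.0263). The count of 3 was 5 without control diet TAC 3, 1 without BCAA-free TAC 3 and 0 without BCAA-free TAC 2. In sham hearts Klf9 was the 1 gene called, with a rise of 0.34 ± 0.0551 (adjusted p = 0.0136). That count was 5 without control diet sham 2 and 0 without BCAA-free sham 1, 2 or 3.

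Markers of other cell types moved with the diet in TAC hearts, the contrast in which Inmt and Fmo2 were picked. Of 10 activated fibroblast markers, 9 fell, and they summed to 14128 to 25716 normalized reads in BCAA-free TAC, 6744 to 8701 in BCAA-free sham, 75799 to 152491 in control diet TAC and 11010 to 12699 in control diet sham hearts. Of 11 macrophage markers 9 fell, with sums of 30041 to 37997 in BCAA-free TAC against 48931 to 50604 in control diet TAC hearts. Of 12 fibroblast markers 7 fell and 2, Scara5 and Gsn, rose, with sums of 159134 to 168083 in BCAA-free TAC against 182399 to 208413 in control diet TAC hearts. Of 10 cardiomyocyte markers 5 rose, with sums of 7040254 to 7456452 in BCAA-free TAC against 4851672 to 5692334 in control diet TAC hearts, a count that was 8 without control diet TAC 3 and 0 to 2 without any other library. The part of these markers in the values of Inmt and the Fmo genes was not tested.

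In sham hearts, where Fmo5 rose, 4 activated fibroblast markers and 3 fibroblast markers fell, and the sums were 6744 to 8701 in BCAA-free sham against 11010 to 12699 in control diet sham hearts for the activated list. The fibroblast list summed to 147095 to 153674 in BCAA-free sham against 150455 to 177411 in control diet sham hearts. With 1 library left out the counts were 0 to 3 for activated fibroblast markers, 0 without BCAA-free sham 1 and 1 without control diet sham 3, and 1 to 6 for fibroblast markers, 1 without BCAA-free sham 1 and 6 without control diet sham 2. DESeq2 called 5 and 7. Lung, in which Inmt and Fmo2 are known to be abundant, was checked with 9 epithelial markers. Sftpc, Sftpa1, Sftpd, Scgb1a1, Cldn18 and Lamp3 were not listed in the tables, and the other 3 summed to 83.1 to 87.6 normalized reads in BCAA-free TAC, 49.8 to 80.9 in BCAA-free sham, 125 to 193 in control diet TAC and 64.3 to 104 in control diet sham hearts. The part of lung RNA in the values of Inmt and Fmo2 was not tested.

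The remaining marker lists were counted for the diet in the same way. In TAC hearts, of 10 endothelial markers 1, Cldn5, fell, of 9 smooth muscle and pericyte markers 2 rose and 1 fell, of 6 atrial markers 1 rose, of 7 mesothelial markers 2 rose and 2 fell, and of 6 nerve and Schwann markers 1 fell. Limma, edgeR and DESeq2 called 0 of 10 adipocyte, 0 of 3 liver and 0 of 6 lymphocyte and neutrophil markers tested, of which 0, 0 and 1 had an unadjusted limma p below 0.05. Alb and Fgb, which mark liver, were not listed in the tables. In sham hearts 1 endothelial, 1 mesothelial and 1 cardiomyocyte marker fell, and 1 macrophage marker rose and 1 fell. Leaving out 1 library moved several of these counts, up to 6 for macrophage markers and 4 for endothelial markers in sham hearts without control diet sham 2. With TAC on the control diet, 2 lung epithelial markers, Sftpb and Napsa, rose, and with the BCAA-free diet in TAC hearts Sftpb fell. Only 3 of the 9 lung markers were tested, at few reads. With 1 library left out, 0 to 2 of them were called in the first comparison and 0 to 3 in the second.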

How the data were processed

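Mouse heart RNA was measured in 12 libraries by sequencing after selection of poly(A) RNA, per the labels' protocols. Trimmomatic 0.36, STAR 2.5.2b, DESeq2 and Subread 1.5.2, with the builds GRCm38 and mm10, are listed per the submitters' processing notes, without roles. The sources used here do not give the annotation release or the strand setting. The authors deposited 4 tables, 1 per pair of groups, with, per the file headers, a signal per library (normalized read counts), log2 fold changes and p-values. The deposited signal is read counts divided by a size factor set in each table. Multiplied back, 431838 of 431838 values (100%) were whole to within 0.0001 of a read, and 0 of 212169 reads compared between tables differed. A gene had at least 61 reads in a table. Depth is given with the results.

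Because the tables hold normalized counts, limma-trend with robust empirical Bayes was used (limma 3.58.1, R 4.3.3) on log2(value + 1), which understates changes of low genes. The minimum mean for testing was 10, and a call needs an adjusted p (Benjamini-Hochberg, over all tested genes) below 0.05. Fits for a pair of groups used its own table and 6 libraries, and the fit for the difference of TAC responses used 4 group means with joint size factors. Levels use the joint factors, so their ratios can differ from the changes beside them. Alternatives were a pseudocount of 10, no filter, joint size factors, a 12-library fit, a replicate block, edgeR 4.0.16 and DESeq2 1.42.0 on recovered reads, and leaving out each library.

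The 4 genes, 22 lists (9 of pathways, 13 of cell types) and tests were chosen with earlier results of these data known. Named beside the 4 genes were the 5 most correlated genes of each (mean of at least 50), up to 3 measured protein-coding neighbours per side, and from each pathway list and comparison at most 3 called genes of smallest p with that mean. Hnmt in the diet comparison fell outside this rule and was named after its values were seen, as were list counts. Positions are those of GENCODE in GRCm38, in which 18547 genes were found, and promoter windows are from RefSeq. No p-value is given for Inmt and Fmo2 where TAC libraries enter the fit. A gene of the lists is not reported here.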

Additional observations from a re-analysis of the deposited data

Results flagged for a closer look

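By limma's test of the difference itself, 3 genes of the pathway lists responded to TAC unequally on the 2 diets, and so did 3 activated fibroblast markers (Lox, Thbs4 and Cthrc1) and 1 fibroblast marker (Mfap5), all lower for the BCAA-free diet. Cyb5r3, the NADH-cytochrome b5 reductase, differed by -0.66 (adjusted p = 0.03), with a TAC response of 0.10 on the BCAA-free diet and 0.76 on the control diet. Fkbp5 differed by -1.06 (adjusted p = 0.0419), with 0.12 on the BCAA-free diet and 1.17 on the control diet. Mt2 differed by -1.38 (adjusted p = 0.0492), with 0.54 on the BCAA-free diet and 1.91 on the control diet. Each was called in 2 of the 12 fits that left out 1 library, with adjusted p of 0.000807 to 0.11 for Cyb5r3, 0.0168 to 0.138 for Fkbp5 and 0.0293 to 0.138 for Mt2. With 3 libraries per group, single libraries were not tested as outliers.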

How the results depend on the processing

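The directions of the 4 genes' changes held under every alternative, except for Fmo5 in the difference of TAC responses, which was -0.01 and ran from -0.08 to 0.08 when each library was left out. Calls changed as follows. Fmo2 in sham hearts passed in DESeq2 (0.79) and ran from 0.67 to 1.05 with libraries left out. The 12-library fit (0.83) takes its spread in part from the TAC libraries on which Fmo2 was picked, and is no test of it. Fmo5 in sham hearts (0.31 to 0.47 with libraries left out) was lost in the 12-library fit and with the replicate block, at 0.40 in both. In TAC hearts Fmo1 ran from 0.39 to 0.60 and Fmo5 from 0.36 to 0.43 with libraries left out, and Fmo5 was lost with the replicate block (0.39). With pseudocount 10, no filter or edgeR no call of the 4 genes changed. The causes were not tested.

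Counts of called genes depended on the setting. For TAC on the control diet the count was 2710, against 4399 in the 12-library fit and 1354 to 4678 with 1 library left out. For TAC on the BCAA-free diet it was 1360, against 298 in the 12-library fit and 546 to 1257 with 1 left out. For diet in sham hearts it was 633, against 149 in the 12-library fit, 1522 in DESeq2 and 50 to 1071 with 1 left out. For diet in TAC hearts it was 3025, against 1195 to 6025 with 1 left out. For the difference of TAC responses it was 112, against 828 in DESeq2 and 15 to 1724 with 1 left out. The counts 4678, 6025 and 1724 were those without control diet TAC 3, and 1071 that without control diet sham 2. Of the 57 named list calls, 57 passed in edgeR and in DESeq2 and 39 with the replicate block, and 37 of 54 passed in the 12-library fit. Over all fits that left out 1 library, these calls passed 217 times and were lost 143 times.

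Libraries with the same replicate number in the labels were not more alike over all genes than other pairs. Deviations from group means of same-numbered libraries correlated at -0.17 to 0.112 (median -0.0605, 18 pairs), and those of other pairs at -0.142 to 0.144 (median 0.0329). With 3 libraries per group these correlations depend on each other, so they cannot decide whether libraries were paired. With the replicate block the count of called genes was 623 for TAC on the BCAA-free diet, 276 for diet in sham hearts and 42 for the difference of TAC responses. Fmo4 had few reads, which limits what its values can show.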
